A study of Mus musculus with 8 samples.

Results

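The genes described are the vascular endothelial growth factor (VEGF) ligands Vegfa, Vegfb, Vegfc and Pgf, the receptor kinases Flt1, Kdr and Flt4, the co-receptors Nrp1 and Nrp2, and the hypoxia factor gene Hif1a. They were taken by symbol from a table of 23993 genes, which held all 10, and all 10 were among the 12107 genes tested, those whose mean reached 1 FPKM. The thoracic aorta was taken from C57BL/6 males aged 24 weeks and its polyadenylated RNA sequenced, giving 4 control and 4 knockout libraries. The labels do not say whether a library is 1 mouse or a pool. All mice carried Myh11-CreERT2, a Cre recombinase made in smooth muscle that acts only once tamoxifen is given, and the mT/mG reporter, which marks recombined cells by a change of fluorescent protein. All received tamoxifen at 1.5 weeks. The control mice were Tsc1+/+, and in the knockouts (labelled Tsc1-/-) Tsc1 was floxed on both alleles (Tsc1fl/fl), so that recombination removes it from smooth muscle and leaves it in cells without Cre. The labels name smooth muscle cells, but whole crushed aortas were extracted with no sorting described, so fewer cells of a type and less RNA per cell cannot be told apart in these values.

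VEGF ligands are secreted dimers that bind receptor tyrosine kinases, found mainly on endothelial cells, and direct the growth, survival and permeability of vessels. VEGF-A binds both Flt1 (VEGFR1) and Kdr (VEGFR2), and Kdr gives the stronger kinase signal. Flt1 binds VEGF-A tightly, is also made as a soluble form that sequesters ligand, and is the receptor for VEGF-B and placental growth factor (Pgf). Vegfc acts through Flt4 (VEGFR3), mostly in lymphatic vessels, and the neuropilins Nrp1 and Nrp2 hold ligands for the receptors and also bind class 3 semaphorins. Hif1a encodes the oxygen-regulated subunit of a transcription factor that raises Vegfa and glycolytic genes in hypoxia, and its protein is controlled mainly by breakdown. Tsc1 restrains the kinase mTORC1, which is known to raise the translation and transcription of Hif1a.

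Values are in FPKM, by definition a fragment count divided by transcript length and by the library's mapped fragments. Any further scaling between libraries in the authors' processing is not given in the sources used here. For Tsc1 itself controls 1 to 4 gave 4.03, 4.82, 4.95 and 6.32 FPKM, and knockouts 1 to 4 gave 2.99, 3.58, 3.37 and 3.71, so that every knockout lay below every control (log2 difference -0.44, limma adjusted p = 0.019). That call was lost among odd-numbered (-0.39) and even-numbered (-0.49) libraries alone. Between 11867 and 12083 genes reached 1 FPKM in a library. Depth could be read only in relative terms, from the commonest ratio to control 1 among rows under 0.3 FPKM. It came to about 0.763 to 2.45 times that of control 1. The commonest ratio held only 8.93% to 15.6% of those rows in the other libraries, so these depths are rough, and the absolute depth is unknown. Rows of small RNAs (Mir7036, Scarna17 and Mir3064) took 17.2% to 47.6% of the FPKM sum in controls 1 to 3. Median-of-ratios factors over the genes at 1 FPKM or more in every library lay between 0.984 and 1.02. Contractile smooth muscle markers were the highest of all marker lists in every group (17736 to 18103 FPKM summed over 10 genes in controls and 11654 to 15637 in knockouts). Libraries with odd and even numbers separated within both genotypes on the second principal component (16.6% of the variance), so calls were also made within each set. Over the 12107 genes tested, 32.2% were called as different, 17.1% higher and 15% lower in the knockout. A call here is a Benjamini-Hochberg adjusted p under 0.05 in limma over all tested genes.

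In the knockout aortas 5 of the 10 genes rose, against 17.1% of all tested genes, and none fell (limma; 0 also at an unadjusted p under 0.05). Those that rose were Flt1, Vegfb, Hif1a, Nrp2 and Nrp1, in the order of their log2 differences. For each of the 5, all 4 knockouts lay above all 4 controls, as they did for 18.3% of tested genes; groups without overlap in either direction made up 33.9%, and 15.6% had all knockouts below. Vegfa, Vegfc, Pgf, Kdr and Flt4 did not pass the test. Each class of the pathway thus held at least 1 gene that rose, but the ligand most closely tied to hypoxia, Vegfa, and the main signalling receptor, Kdr, were not among them.

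**Figure D1:**
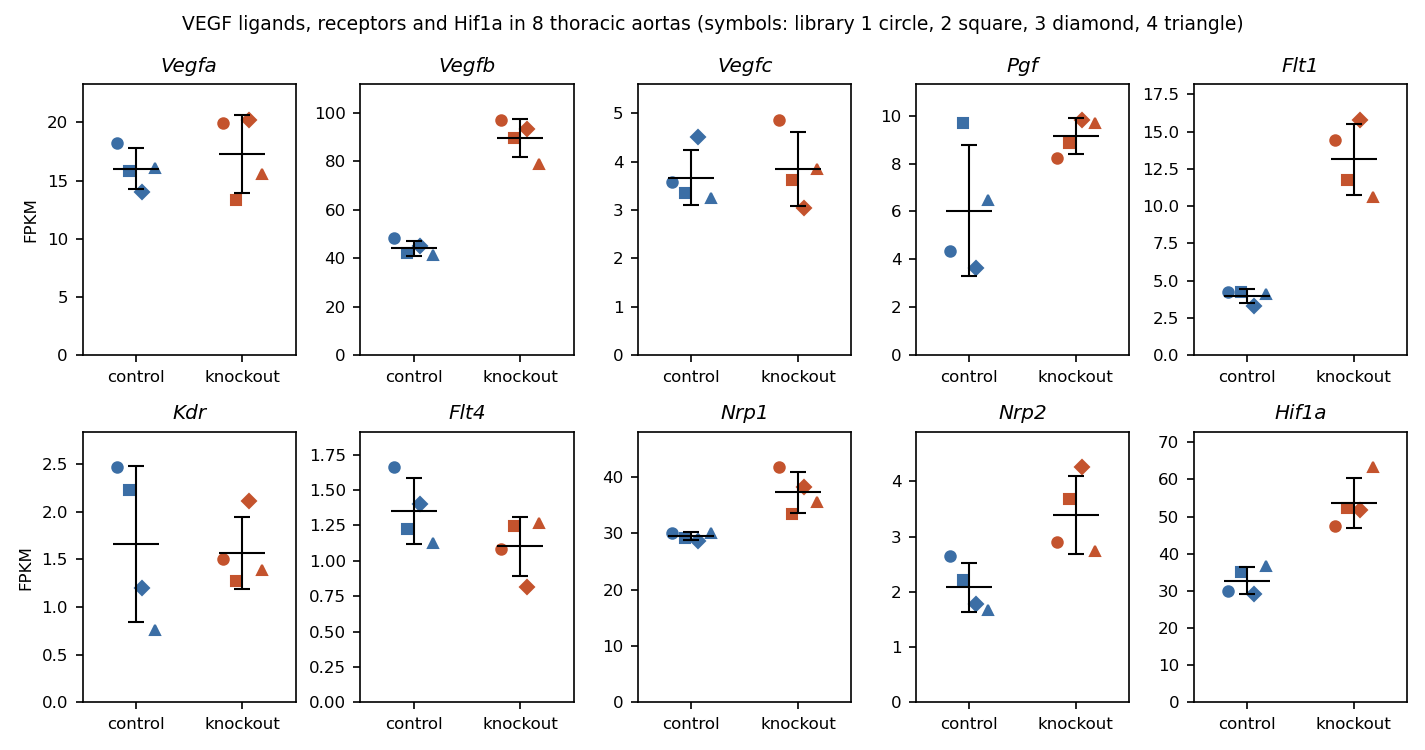
FPKM of the 10 genes in each library, with 4 controls at the left and 4 knockouts at the right of each panel; horizontal bars are means and error bars SD (n = 4). The groups are apart for Vegfb, Flt1, Nrp1, Nrp2 and Hif1a and overlap for the other 5 genes, and Pgf shows controls 2 and 4 above controls 1 and 3.

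Among the ligands, Vegfb was the most abundant gene of the set and the only ligand that rose. Its product binds Flt1 but not Kdr and is known mainly from heart, muscle and fat rather than from sprouting vessels. Vegfb measured 48.2, 42.0, 45.0 and 41.3 FPKM over controls 1 to 4, against 97.1, 89.6, 93.2 and 78.9 for knockouts 1 to 4. The knockouts lay close to each other and far above the controls, with no overlap. The mean went from 44.1 ± 3.16 to 89.7 ± 7.83 FPKM (SD, n = 4), a 2.03-fold ratio, with a log2 difference of 1.01 (SE 0.08, limma adjusted p = 6.91e-05), and 228 of the 12107 tested genes had a larger log2 difference upwards. The difference was 1.02 among odd-numbered and 0.997 among even-numbered libraries.

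Vegfa, the central angiogenic ligand, stood at 18.3, 15.8, 14.0 and 16.0 FPKM across controls 1 to 4 and reached 19.9, 13.4, 20.2 and 15.5 across knockouts 1 to 4. The groups overlapped, with knockouts 1 and 3 above and knockout 2 below all controls. The log2 difference was 0.09 with a 95% interval from -0.22 to 0.40 (limma adjusted p = 0.654), so a rise of the size seen for Vegfb lay outside the interval. Within the odd-numbered libraries the difference was 0.31 and within the even-numbered ones -0.13, and a test of that disparity did not pass (limma interaction, adjusted p = 0.260). The ratio of Vegfb to Vegfa was 2.57 to 3.21 in controls and 4.61 to 6.71 in knockouts, without overlap.

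Pgf, a ligand of Flt1 alone among the receptor kinases, measured 4.33, 9.69, 3.63 and 6.48 FPKM over controls 1 to 4, against 8.21, 8.87, 9.82 and 9.69 for knockouts 1 to 4. Control 2 lay within the range of the knockouts and the other controls lay below it. The log2 difference was 0.60 (95% interval 0.08 to 1.13, limma adjusted p = 0.0772) and did not pass over all genes. Without control 2 it was 0.83 and passed (limma adjusted p = 0.00832), and it passed among the odd-numbered libraries (1.01) but not among the even-numbered ones (0.20). Vegfc, the lymphatic ligand, stood at 3.57, 3.34, 4.50 and 3.25 FPKM across controls and 4.87, 3.63, 3.04 and 3.85 across knockouts, with full overlap (log2 difference 0.05, 95% interval -0.24 to 0.34, limma adjusted p = 0.801). The remaining family ligand, Vegfd (listed under its older symbol Figf), averaged 26.0 ± 10.5 FPKM in controls and 26.5 ± 9.16 in knockouts, and its groups overlapped (limma adjusted p = 0.919).

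The receptor kinases were low in this tissue and parted from each other. Flt1 stood at 4.26, 4.21, 3.27 and 4.10 FPKM across controls 1 to 4 and reached 14.4, 11.7, 15.8 and 10.6 across knockouts 1 to 4. All knockouts were far above all controls, and the spread among knockouts, 2.38 FPKM (SD), was small beside the distance between the means (3.96 and 13.1 FPKM). The ratio of the means was 3.32-fold, and 85 tested genes had a larger log2 difference upwards. On the log2(FPKM + 1) scale, which understates relative change at low levels, Flt1 differed by 1.50 (SE 0.13, limma adjusted p = 9.19e-05). The value was 1.76 within the odd-numbered and 1.24 within the even-numbered libraries, and a test of that disparity did not pass (limma interaction, adjusted p = 0.163). FPKM over the whole gene do not separate the membrane receptor from its soluble form.

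Kdr measured 2.47, 2.23, 1.20 and 0.758 FPKM over controls 1 to 4, against 1.51, 1.27, 2.12 and 1.39 for knockouts 1 to 4. The controls were spread more widely than the knockouts and enclosed them, with a log2 difference of -0.01 (95% interval -0.51 to 0.49, limma adjusted p = 0.982). Flt4 stood at 1.66, 1.22, 1.40 and 1.13 FPKM across controls and 1.09, 1.24, 0.817 and 1.27 across knockouts (log2 difference -0.16, 95% interval -0.42 to 0.10, limma adjusted p = 0.313). At levels this low the log2(FPKM + 1) scale used for all tests understates relative change. Within a library the ratio of Flt1 to Kdr was 1.72 to 5.42 in controls and 7.46 to 9.57 in knockouts, and these ranges did not overlap.

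**Figure D2:**
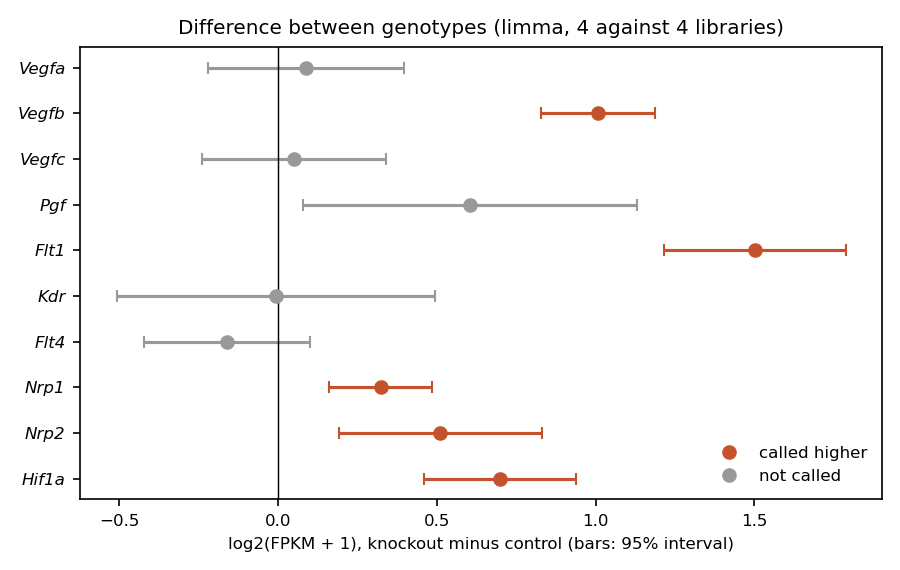
Log2(FPKM + 1) in knockouts minus controls for each of the 10 genes, with 95% intervals from limma; red points passed at an adjusted p under 0.05 and grey points did not. Flt1 (1.50) and Vegfb (1.01) lie farthest to the right, while the intervals of Vegfa, Vegfc, Kdr and Flt4 span 0.

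The co-receptors both rose, by less than Flt1. Nrp1, by far the more abundant, stood at 30.1, 29.1, 28.6 and 30.2 FPKM across controls 1 to 4 and reached 41.8, 33.5, 38.2 and 35.6 across knockouts 1 to 4. The controls lay within 2 FPKM of each other and every knockout lay above them. Its log2 difference was 0.32 (SE 0.07, limma adjusted p = 0.00914), with 0.43 among odd-numbered libraries and 0.21, no longer past the threshold, among even-numbered ones. Nrp2 measured 2.66, 2.21, 1.78 and 1.68 FPKM over controls 1 to 4, against 2.91, 3.68, 4.26 and 2.75 for knockouts 1 to 4, with knockouts 1 and 4 just above the highest control. Its log2 difference was 0.51 (SE 0.14, limma adjusted p = 0.0233). That call was lost without control 3 (0.47), control 4 (0.45), knockout 2 (0.48) or knockout 3 (0.42), and among the odd-numbered (0.51) and even-numbered (0.51) libraries alone.

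Hif1a stood at 30.1, 35.0, 29.1 and 36.6 FPKM across controls 1 to 4 and reached 47.5, 52.4, 51.7 and 63.3 across knockouts 1 to 4. All knockouts were above all controls, and knockout 4 was the highest. The mean went from 32.7 ± 3.67 to 53.7 ± 6.73 FPKM (1.64-fold; log2 difference 0.70, SE 0.10, limma adjusted p = 0.00139). The difference was 0.73 among odd-numbered and 0.67 among even-numbered libraries. Exons of Hif1a share 330 bases (5.60% of its exon bases) with an antisense gene and 148 bases with a gene on the same strand in GENCODE M21. The strand setting of the counting is not given in the sources used here, so reads of the antisense gene could be included.

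Upstream sequence is shown for the 3 genes with the largest differences, Flt1, Vegfb and Hif1a. Hif1a encodes a factor that binds the short motif ACGTG or GCGTG, the core of the hypoxia response element. A part of this motif in the rise of these genes was not tested. Each run gives the 250 bases before the RefSeq start (GRCm38.p6), 5′ to 3′ on the gene's own strand, with matches to that motif on either strand in capitals.
Flt1, chr5:147726012-147726261, minus strand: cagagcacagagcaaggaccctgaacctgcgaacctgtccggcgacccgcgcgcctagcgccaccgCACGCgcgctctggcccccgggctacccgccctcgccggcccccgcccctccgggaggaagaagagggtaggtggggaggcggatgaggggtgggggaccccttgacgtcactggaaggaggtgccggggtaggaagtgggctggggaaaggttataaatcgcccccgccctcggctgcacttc
Vegfb, chr19:6987652-6987901, minus strand: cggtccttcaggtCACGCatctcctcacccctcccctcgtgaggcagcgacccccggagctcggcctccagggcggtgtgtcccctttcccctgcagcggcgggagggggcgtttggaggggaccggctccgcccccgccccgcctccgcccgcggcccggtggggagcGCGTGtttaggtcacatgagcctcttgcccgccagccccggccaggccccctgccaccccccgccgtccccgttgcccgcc
Hif1a, chr12:73907617-73907866, plus strand: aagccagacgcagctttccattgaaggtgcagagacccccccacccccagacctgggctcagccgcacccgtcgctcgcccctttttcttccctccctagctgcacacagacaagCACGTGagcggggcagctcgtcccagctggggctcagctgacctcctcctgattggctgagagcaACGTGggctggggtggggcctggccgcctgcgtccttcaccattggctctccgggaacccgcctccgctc
Flt1 had 1 match, whose first base lay 184 bases before the start, and Vegfb had 2, at 237 and 81 bases. Hif1a had 3, at 135, 134 and 70 bases, the first 2 of which overlap within CACGTG, a palindromic E-box present in 6.02% of all promoter windows, in 10.03% of tested genes with a window and in 12.8% of those called higher. The motif was also found before Kdr, Nrp1 and Nrp2 and in 1 of the 2 windows each of Pgf and Vegfa, but not before Vegfc or Flt4. The Vegfa window with matches (46025164 to 46025413) belongs to a RefSeq start far inside the gene's span (46016993 to 46032369). The Vegfa window outside that span (46032378 to 46032627) had no match. The matching windows of Hif1a, Nrp1 and Pgf also lie wholly inside their GENCODE spans. That of Hif1a begins at 73907617, well past the start of its span at 73901375. These windows precede a RefSeq start within the span and are not sequence upstream of the whole span. In all, 8 of the 10 genes had a match in at least 1 window, for Vegfa, Hif1a, Nrp1 and Pgf only inside the span. The share with a match was 61.9% of the 9096 tested genes with a window, 62.1% of those called higher, and 38.6% of all 32851 windows. The motif was thus about as frequent in genes called higher as in all tested genes. The windows are rich in G and C, 59.2% to 76.4% for these genes against a median of 52.4% over all windows. A match describes the letters of the sequence and does not show binding.

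In mm10 coordinates (GENCODE M21) the genes lie on 7 chromosomes and all are protein coding. Flt1 spans 147561604 to 147726011 and Kdr 75932827 to 75978458 on chromosome 5. Hif1a spans 73901375 to 73947530 and Pgf 85166635 to 85177790 on chromosome 12, and Vegfc spans 54077606 to 54187096 and Nrp1 128358604 to 128503363 on chromosome 8. Vegfb lies on chromosome 19 (6982473 to 6987651), Vegfa on chromosome 17 (46016993 to 46032369), Flt4 on chromosome 11 (49609263 to 49652739) and Nrp2 on chromosome 1 (62703285 to 62818695).

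Ordered by FPKM, which is scaled to transcript length, controls ran Vegfb, Hif1a, Nrp1, Vegfa, Pgf, Flt1, Vegfc, Nrp2, Kdr and Flt4. The library ranges of 5 neighbouring pairs overlapped in controls: Hif1a with Nrp1, Pgf with Flt1, Flt1 with Vegfc, Nrp2 with Kdr, and Kdr with Flt4. In knockouts the order differed only in that Flt1 stood before Pgf, next to Vegfa (mean 17.3 FPKM), whose range it overlapped. Neighbours that overlapped in knockouts were Vegfa with Flt1 and Vegfc with Nrp2, and no others did. In controls Vegfb was above 85.5% of tested genes by mean FPKM, and Kdr above 6.71%.

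Endothelial cells are the main known source of the receptor kinases, and their markers moved the other way from Flt1. Of 21 tested endothelial markers 15 fell and 0 rose (limma; 16 lower and 0 higher at an unadjusted p under 0.05), with a median log2 difference of -0.75 against 0.01 over all tested genes. Of all tested genes 15% fell and 17.1% rose. Pecam1, an adhesion molecule of endothelial junctions, stood at 106, 172, 137 and 162 FPKM across controls and 53.1, 90.1, 56.7 and 94.1 across knockouts (log2 difference -0.99, limma adjusted p = 0.00982). Cdh5 (VE-cadherin) fell from 15.2 ± 0.999 to 9.40 ± 1.57 FPKM and Tek, the angiopoietin receptor Tie2, from a mean of 14.1 to 6.80 FPKM. Eng (endoglin), the second most abundant of these markers, averaged 50.4 ± 2.72 and 48.3 ± 2.06 FPKM and did not pass (log2 difference -0.06, limma adjusted p = 0.480). Summed over 22 markers the level was 451 to 555 FPKM in controls and 274 to 351 in knockouts, and no marker was at 0 in any library. The Cdh5 call was lost among the even-numbered libraries alone (-0.46).

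Set against the mean of the 21 tested endothelial markers in the same library, Flt1 averaged -1.85 ± 0.186 in controls and 0.34 ± 0.387 in knockouts on the log2(FPKM + 1) scale (SD, n = 4). Controls 1 to 4 lay at -1.65, -1.79, -2.09 and -1.89, and knockouts 1 to 4 at 0.60, 0.10, 0.73 and -0.08. The difference of 2.19 gave p = 0.0286 in a two-sided exact permutation test, which with 4 libraries in each group cannot go lower (0.0429 adjusted over the 3 receptor kinases). Flt1 was above and the marker mean below all controls in every knockout, so this lowest p was fixed in advance. That p-value adds no support beyond the calls of Flt1 and of the markers themselves. Flt4 differed by 0.53 on the same measure (exact p = 0.0286, adjusted 0.0429), with -3.15 to -2.63 in controls and -2.48 to -2.29 in knockouts. This is no rise of Flt4, whose own log2 difference was -0.16 (Kdr -0.01), since the markers set against it fell (median -0.75). Near 1 FPKM the log2(FPKM + 1) scale also understates a fall of Flt4 more than that of the more abundant markers. Kdr differed by 0.68 and did not pass (exact p = 0.114, adjusted 0.114), but passed without control 1 (0.87, adjusted exact p = 0.0286). Without any 1 knockout the differences were 2.06 to 2.33 for Flt1 and 0.49 to 0.55 for Flt4, and their adjusted exact p was 0.0857, past the threshold for neither. The Flt1 groups stayed fully apart in each of these sets. With fewer libraries the exact p has few possible values, and its adjustment also depends on the other receptor kinases. The lost call of Flt1 therefore does not show a weaker difference. Relative to Pecam1 alone, Flt1 had a ratio of 0.0239 to 0.0401 in controls and 0.113 to 0.279 in knockouts.

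**Figure D3:**
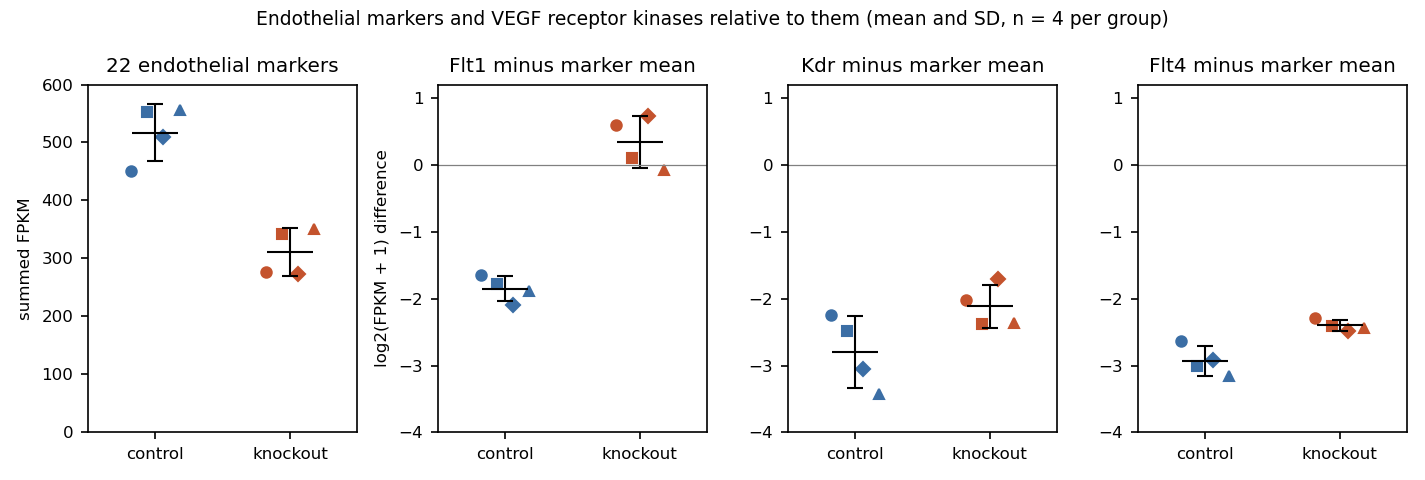
Left, FPKM summed over 22 endothelial markers per library; right, log2(FPKM + 1) of Flt1, Kdr and Flt4 minus the mean of the 21 tested markers in the same library, with mean and SD (n = 4). Marker sums are lower in all knockouts (274 to 351 against 451 to 555), while Flt1 relative to them is higher in all knockouts (-0.08 to 0.73 against -2.09 to -1.65).

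Other cell types that make these genes were checked by their markers. Each count below stands beside the 15% of all tested genes that fell and the 17.1% that rose. Of 13 macrophage markers, a cell type that expresses Flt1, 0 were called (limma; 1 higher and 0 lower at an unadjusted p under 0.05), and their sum was 264 to 378 FPKM in controls and 224 to 308 in knockouts. Lyz2 and C1qa, the most abundant, averaged 107 and 58.3 FPKM in controls and 90.8 and 45.4 in knockouts. Fat cell markers, relevant to Vegfa and Vegfb, summed to 190 to 580 FPKM in controls, the highest in control 1, and 143 to 354 in knockouts, and 1 of 11 fell. With the fat cell score as a covariate Vegfb differed by 1.03 and Vegfa by 0.16, and with the striated muscle score by 0.98 and 0.10. Striated muscle markers summed to 10.04 to 303 FPKM in controls, the highest in control 4, and 5.23 to 64.2 in knockouts, with 4 of 13 markers at 0 in at least 1 library. Of 10 adventitial fibroblast markers 5 fell and 0 rose (limma; 6 lower and 1 higher at an unadjusted p under 0.05), among them Dcn (-0.43) and Clec3b (-0.97), while the differences of Lum (0.38), Col14a1 (0.34) and Pdgfra (0.26), named after their values were seen, were positive and did not pass. Of 10 contractile smooth muscle markers 5 fell, among them Acta2 (-0.28) and Tagln (-0.45), where 15% of all tested genes fell. Of 6 lymphatic endothelial markers 3 were tested and 1 fell (Pdpn, which other cells also make), Lyve1 did not pass (-0.07), and Prox1, their defining factor, stayed under 0.2 FPKM on average (0.0611 in controls and 0.110 in knockouts). Schwann cell markers fell in 3 of 4 cases, and of 5 red blood cell genes 0 were called (limma; 0 also at an unadjusted p under 0.05), at 124 to 1402 FPKM in controls and 43.0 to 531 in knockouts. With either score as a covariate the 5 genes that rose kept their call: Flt1 differed by 1.54 with the fat cell and 1.50 with the striated muscle score, Hif1a by 0.68 and 0.74, Nrp2 by 0.58 and 0.44, and Nrp1 by 0.34 and 0.34. Pgf (0.54 and 0.64), Vegfc, Kdr and Flt4 did not pass with either. The part of the other markers in these values was not tested.

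The genes downstream of the receptors did not move in one direction. Of 36 tested VEGF receptor signalling genes 4 rose, 8 fell and 24 did not pass, 33.3% called, near the 32.2% of all tested genes, with a median log2 difference of -0.05. Plcg1, the phospholipase that binds activated Kdr, rose from 10.9 ± 0.516 to 15.3 ± 1.17 FPKM (log2 difference 0.45), and the adaptors Shc1 (0.36) and Nck1 (0.21) and the kinase Mapk3 (0.25) rose. Nos3, the endothelial nitric oxide synthase, fell from 16.7 ± 1.83 to 7.73 ± 0.754 FPKM (-1.02), and Ptprj, a phosphatase that acts on Kdr, from 21.7 ± 0.886 to 12.7 ± 0.822 FPKM (-0.72). The kinase Fyn (-0.43) and the calcineurin subunit Ppp3ca (-0.35) also fell. Nos3 and Ptprb, another of the genes that fell, are endothelial markers as well. The count of genes that rose was 2 without control 1, control 3, knockout 1 or knockout 3, and the count that fell was 5 without control 4 or knockout 1. Nck1 and Mapk3 each lost their call without any 1 of 5 libraries, as did Ppp3ca, whose groups overlapped. Among even-numbered libraries alone the calls of Shc1 (0.26), Mapk3 (0.10), Nck1 (0.14) and Fyn (-0.34) were lost, and among odd-numbered ones those of Nck1 (0.28) and Ppp3ca (-0.27).

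Kin of the VEGF family showed a similar mix. Of 6 PDGF ligands and receptors 2 rose and 0 fell (limma; 1 lower at an unadjusted p under 0.05), with a median log2 difference of 0.17. That is 33.3% called, near the 32.2% of all tested genes. Pdgfc rose from 13.5 ± 2.78 to 23.3 ± 0.858 FPKM (log2 difference 0.76) and Pdgfrb, the receptor of mural cells, from 90.9 ± 28.8 to 142 ± 13.7 FPKM (0.68). The Pdgfrb groups overlapped. Only 1 of the 2 was called without control 1, control 3, knockout 3 or knockout 4, the Pdgfrb call being lost in each (0.51 to 0.68), as it was without knockout 2 (0.66). All 4 tested genes of the angiopoietin system changed, where 32.2% of all tested genes were called, with a median of -0.70. Angpt2, the ligand that antagonises Tie2 in many settings, rose (17.0, 30.0, 18.4 and 29.2 FPKM in controls, 35.0, 37.3, 41.5 and 35.8 in knockouts; log2 difference 0.68), while Tek (-0.95), Tie1 (-0.84) and Angpt4 (-0.56) fell. Tek and Tie1 are endothelial markers as well, and those markers mostly fell. The Angpt2 call was lost without control 3 (0.58) or knockout 3 (0.63). The Angpt4 call was lost without control 1 (-0.58) or any 1 knockout (-0.60 to -0.46), and among odd-numbered (-0.68) and even-numbered (-0.43) libraries.

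Class 3 semaphorins, a family that includes other ligands of Nrp1 and Nrp2, mostly fell as the neuropilins rose. Of 7 class 3 semaphorins, not all of which need a neuropilin, 6 fell and 1 rose. Those that fell include Sema3e and Sema3g (1.60 FPKM in controls and 0.667 in knockouts), which passed the 1 FPKM filter only through the controls. Of 5 plexins, their signalling receptors, 1 rose and 4 did not pass, where 15% of all tested genes fell and 17.1% rose. The median log2 difference over the 12 genes was -0.41. Sema3f, a ligand of Nrp2, fell from 70.6 ± 6.43 to 40.4 ± 2.56 FPKM (log2 difference -0.79, limma adjusted p = 0.000202), Sema3d from 25.4 ± 3.69 to 12.6 ± 3.95 FPKM (-0.998), Sema3e from 1.85 ± 0.191 to 0.661 ± 0.178 FPKM (-0.78), and Sema3c from 54.4 ± 3.71 to 34.3 ± 10.7 FPKM (-0.70). Plxna2 rose from 3.98 ± 0.400 to 9.22 ± 0.665 FPKM (1.04) and Sema3b by less (0.24). The Sema3c call was lost without control 1, control 3, knockout 1 or knockout 3 (-0.68 to -0.56) and among the even-numbered libraries (-0.23). Sema3b was lost without control 1, knockout 2 or knockout 3 (0.22 to 0.23) and among odd-numbered (0.20) and even-numbered (0.27) libraries, which left 1 gene of the list higher.

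Most partners and regulators of Hif1a did not pass the test. Epas1 (HIF-2 alpha), a sister of Hif1a known from endothelium, stood at 102, 107, 106 and 117 FPKM across controls and 63.6, 79.4, 75.1 and 89.1 across knockouts, every knockout below every control (log2 difference -0.49, SE 0.10, limma adjusted p = 0.00558). Arnt, the shared dimer partner, did not pass (-0.12), nor did the prolyl hydroxylases that mark HIF for breakdown, Egln1 (-0.11), Egln2 (0.01) and Egln3 (0.02), the ubiquitin ligase subunit Vhl (0.13) or the asparagine hydroxylase Hif1an (0.14). Arnt2 went from 0.318 ± 0.115 to 2.23 ± 1.31 FPKM (1.20), with 2.91, 1.30, 3.73 and 0.970 FPKM in knockouts 1 to 4. Its control mean lay under 1 FPKM, so it passed the filter only through the knockouts, and its call is no separate support for a rise. Tceb2 (elongin B) fell by 0.24, a call that was lost with quantile scaling (-0.11) and within the odd-numbered (-0.22) and even-numbered (-0.25) libraries alone. Of 12 tested genes of this list 3 were called, Arnt2 among them, 25% against 32.2% of all tested genes, with a median of 0.02, and without knockout 1 the count that rose was 2.

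Among 38 tested genes that hypoxia is known to induce, 13 rose, 5 fell and 20 did not pass (47.4% called, against 32.2% of all tested genes), with a median log2 difference of 0.06 against 0.01 over all tested genes. Bhlhe40, a transcriptional repressor and clock regulator, stood at 4.98, 11.6, 4.02 and 21.5 FPKM across controls and 26.0, 30.8, 38.5 and 42.2 across knockouts (log2 difference 1.86, limma adjusted p = 0.0116). It was 2.58 among odd-numbered libraries and 1.14, no longer past the threshold, among even-numbered ones. Hmox1 (heme oxygenase) rose from 6.59 ± 0.195 to 14.5 ± 0.808 FPKM (1.03), Bnip3, a mitophagy receptor, from 23.8 ± 4.70 to 36.6 ± 6.11 FPKM (0.60), and Eno1 by 0.56. The glucose transporter Slc2a1 stood at 27.0, 36.4, 26.9 and 33.7 FPKM across controls and 44.3, 44.4, 44.7 and 46.8 across knockouts (0.54, limma adjusted p = 0.00393). The genes that fell included the lactate exporter Slc16a3, from 13.3 ± 3.06 to 7.16 ± 1.92 FPKM (-0.81), the vasodilator peptide gene Adm (17.1 ± 4.73 to 11.1 ± 1.60 FPKM, -0.55, groups overlapping), Stc2 (-0.51) and Plod2 (-0.34). The Bnip3 call was lost without control 2 (0.61), knockout 2 (0.55) or knockout 4 (0.53) and among odd-numbered libraries (0.52), as was that of Plod2 among the latter (-0.28). Those of Adm (-0.61 to -0.39) and Stc2 (-0.58 to -0.35) were each lost without any 1 of 7 libraries, Adm passing only without control 4 and Stc2 only without knockout 2. Both were also lost among odd-numbered libraries (-0.49 and -0.82) and even-numbered ones (-0.62 and -0.20). The count of genes that fell was 3 without control 1, control 2, control 3, knockout 1, knockout 3 or knockout 4.

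**Figure D4:**
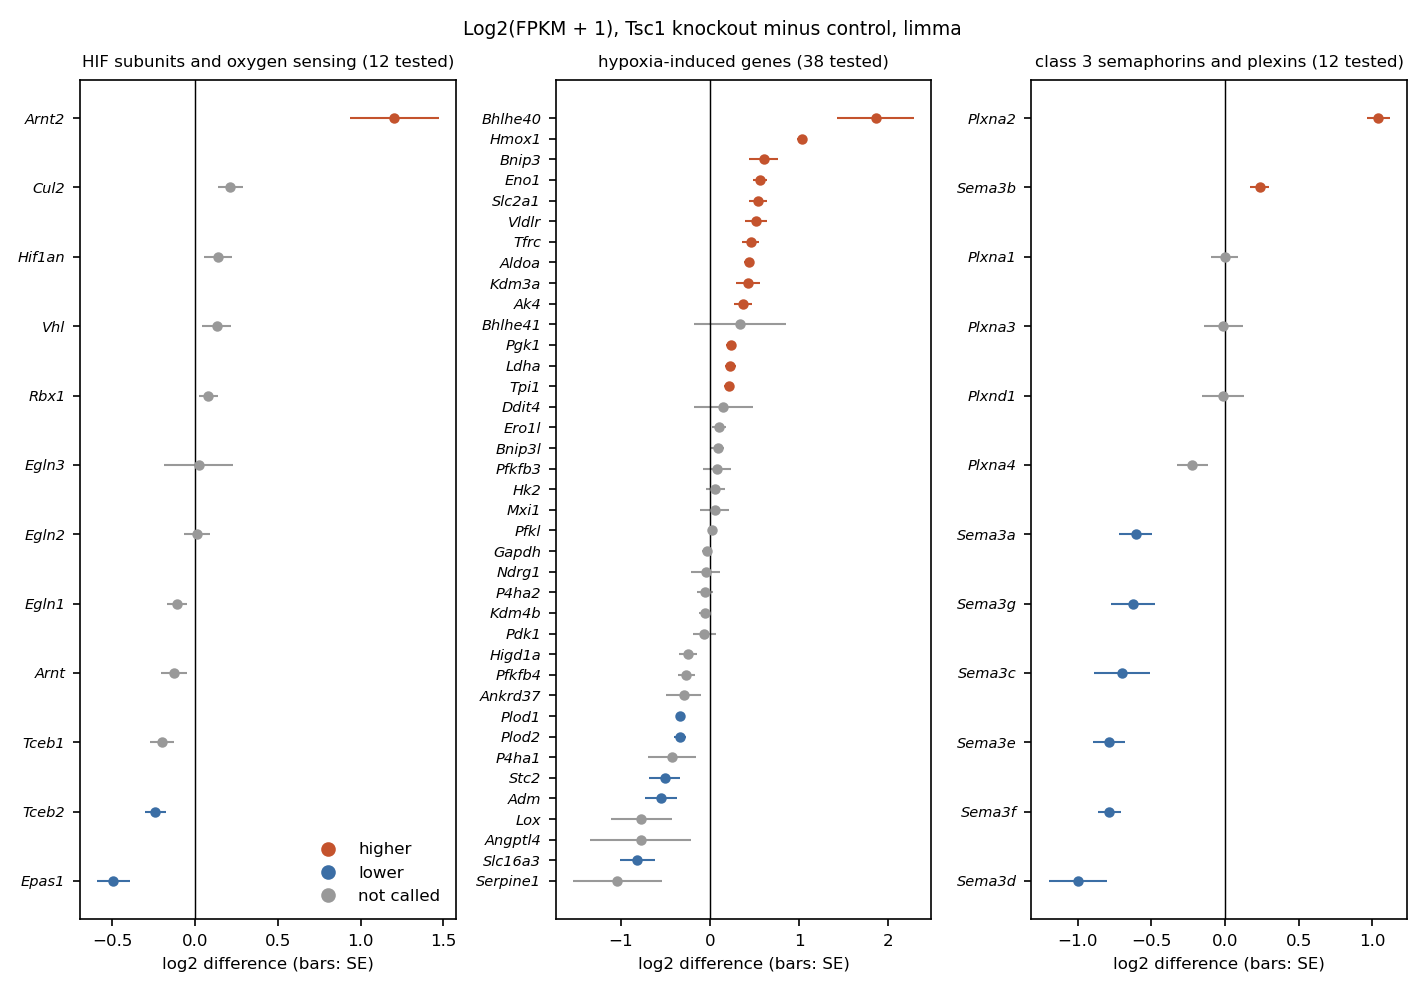
Log2(FPKM + 1) in knockouts minus controls with SE for the tested genes of 3 lists; red points rose, blue points fell and grey points did not pass in limma. Hypoxia-induced genes lie on both sides of 0 (13 higher, 5 lower), Epas1 is the lowest of its list at -0.49, and 6 of the 7 class 3 semaphorins are lower.

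The genes whose library profile was closest to each of these genes were sought by the root-mean-square difference of log2(FPKM + 1) over the 8 libraries, each gene centred on its own mean, among 8804 or 8805 genes whose mean reached 5 FPKM. Vegfb was closest to Ggact (0.0731 log2 units), Itgbl1 (0.0790) and Aebp1 (0.0924). Flt1 was closest to Galm (0.125), Tcn2 (0.131) and Rai2 (0.150). Hif1a was closest to Fam53b (0.0708), Atp6v1d, a subunit of the lysosomal proton pump (0.0823), and Idh1 (0.0856). Pgf was closest to Angpt2 (0.166), which shared its lower values in controls 1 and 3, then to Gstm7 (0.185) and Mpv17l2 (0.185). Nrp2 was closest to Mcur1 (0.110), Timm10 (0.128) and Gpd2 (0.130), and Kdr to 4930562F07Rik (0.162), Foxo3 (0.178) and Hk2 (0.187). Vegfa, Vegfc, Flt4 and Nrp1 varied too little over the libraries (SD under 0.25 log2 units) for this measure.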

How the data were processed

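Poly(A)-selected RNA of whole aortas was sequenced in 8 libraries, with 500 ng of total RNA (RIN above 7) per library per the labels' protocols. The deposited values are FPKM, 1 column per library. Per the submitters' processing notes the authors used TopHat2, Cufflinks, Cuffdiff and mm10. Annotation, strand setting, any scaling between libraries and versions: not given in the sources used here. Values were compared as deposited, as log2(FPKM + 1), for genes whose mean reached 1 FPKM, with limma 3.58.1 in R 4.3.3 (lmFit, eBayes with a mean-variance trend, genotype as the only term, two-sided). Calls are at a Benjamini-Hochberg adjusted p under 0.05 over all tested genes. The fit was tested on simulated data. If the libraries of a group do not come from separate animals, the p-values reflect a spread that may be only technical. FPKM without fragment counts allow no counting interval.

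The 10 genes, the 6 pathway lists, the 9 marker lists and the tests were chosen with earlier results of these data known. Named besides the 10 genes were a set list (such as Epas1, Egln1 and Tek), up to 4 called genes per direction of each pathway list, the most abundant markers and the 3 closest profiles. Coordinates are from GENCODE M21 and promoter sequences from RefSeq (GRCm38.p6), in which all 10 symbols matched. Alternatives were other pseudocounts, filters, scalings and covariates, single libraries left out, and odd- or even-numbered libraries alone.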

Additional observations from a re-analysis of the deposited data

Results flagged for a closer look

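Of 20 groups of 4 libraries (10 genes in each genotype), 1 held a library far from the others: Flt1 in control 3, at 3.27 FPKM, was the lowest control, and its gap to the next control took 0.844 of the range of the controls, above the critical value of Dixon's test at 95%. Chance flags about 1 in 20 such groups. Without control 3 the log2 difference of Flt1 was 1.43.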

How the results depend on the processing

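Vegfb, Flt1 and Hif1a kept direction and call in all 21 alternatives. A filter at 5 FPKM leaves out Vegfc, Kdr, Flt4 and Nrp2, which therefore had 20. Vegfb ran from 0.97 to 1.07, Flt1 from 1.24 to 1.76 and Hif1a from 0.62 to 0.75. Nrp1 lost its call among even-numbered libraries (0.21). Nrp2 lost it among odd-numbered (0.51) and even-numbered ones (0.51), and ran from 0.42 to 0.60 with 1 library left out. Pgf was called when the odd or even set was a covariate (0.60) and among odd-numbered libraries (1.01), and ran from 0.43 to 0.83 with 1 library left out. The 10 genes held 3 higher calls among even-numbered libraries. The small differences of Vegfa, Vegfc, Kdr and Flt4 changed sign in some alternatives without a call. With the replicate block no call of the 10 genes changed, and 2349 genes were called higher and 2122 lower over all tested genes (2074 and 1819 without it). Same-numbered libraries correlated in their deviations at 0.0656, 0.138, 0.135 and 0.173, not all above 0.1, so the numbers were not taken as pairs. Controls 1 and 3 and knockouts 1, 2 and 3 did not correlate best with their own number.

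Relative to endothelial markers, Flt1 and Flt4 lost the call with a pseudocount of 0.1 (2.45 and 0.48), in odd-numbered (2.53 and 0.39) and in even-numbered libraries (1.85 and 0.67), where 2 against 2 libraries cannot go below an exact p of 0.333. With the pseudocount of 0.1 the Flt1 difference was larger than the 2.19 with a pseudocount of 1. Its adjusted p also depends on the other receptor kinases, so that lost call does not show a weaker Flt1. With 1 library left out, Flt1 ran from 2.06 to 2.33, Kdr from 0.47 to 0.87 and Flt4 from 0.45 to 0.63.

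Counts of called genes moved as follows. With no filter PDGF genes had 1 higher and hypoxia-induced genes 3 lower. With a filter at 5 FPKM semaphorins and plexins had 3 lower and HIF genes 0 higher (limma; Arnt2 was then not tested). HIF genes had 1 lower with quantile scaling and among even-numbered libraries, and 2 higher with the replicate block, with odd or even number as covariate and with the striated muscle covariate. PDGF genes had 1 lower with odd or even number as covariate and among even-numbered libraries. VEGF signalling genes had 4 lower among odd-numbered and 5 among even-numbered libraries. Semaphorins and plexins had 1 higher in each of those sets, and hypoxia-induced genes 8 higher in the even-numbered one. With 1 library left out the counts were 2 to 4 higher and 5 to 7 lower for VEGF signalling, 1 to 2 higher and 0 to 1 lower for PDGF, 0 to 1 higher for angiopoietins, 1 to 2 higher for semaphorins and plexins, 1 to 2 higher for HIF genes, and 9 to 13 higher and 3 to 5 lower for hypoxia-induced genes. Among 42 other named genes, a call was lost in 90 results over the alternatives and gained in 1 (Vhl, with the striated muscle covariate), 785 kept theirs, and none changed the sign of a called value. Pgf (SE 0.23) and Kdr (SE 0.22) are the least precise of the 10 genes.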
